A study of Homo sapiens with 60 samples.

Results

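Integrins are the cell surface receptors that tie cells to the extracellular matrix, and 10 genes for their subunits were followed in SW1783 cells, a human astrocytoma line, by RNA sequencing. The genes are those for the β subunits ITGB1, ITGB3, ITGB4, ITGB5 and ITGB8 and for the α subunits ITGA2, ITGA3, ITGA5, ITGA6 and ITGAV. They were found by their Ensembl identifiers among 60675 genes of the count table, and all 10 were among the 17919 genes with enough counts to be tested. Their levels are given as CPM, counts per 1 M counts of a library after scaling the libraries to each other.

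An integrin is a pair of 1 α and 1 β subunit, and the pair decides which matrix protein is bound. ITGB1 pairs with many α subunits, among them the collagen receptor subunit ITGA2, the laminin receptor subunits ITGA3 and ITGA6 and the fibronectin receptor subunit ITGA5. ITGAV pairs with ITGB3, ITGB5 or ITGB8 to bind proteins such as vitronectin or, for ITGB8, the latent form of TGF-β, while ITGB4 pairs with ITGA6 alone and joins laminin to keratin filaments in the hemidesmosomes of epithelia. In astrocytoma and glioma cells integrins are studied for their part in adhesion, invasion and survival signalling, which runs partly through PI3-kinase.

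All cells were treated for 24 h. The drugs, each at 10 µM with 3 libraries, were the PI3-kinase inhibitors wortmannin and LY294002 and the antipsychotic thioridazine, a phenothiazine. The extracts were made in water from Paeoniae Radix (peony), Panax Ginseng, Poria Cocos, Glycyrrhizae Radix (licorice), Angelicae Gigantis Radix and Atractylodis Rhizoma, each at 20, 100 and 500 µg/mL, called the low, medium and high dose. Poria, atractylodes, licorice and ginseng had 3 libraries a dose, and angelica and peony had 2. The vehicle was DMSO, with 3 libraries; its share is 0.1% by the sample labels but 2% by the series text, and whether drug and extract samples held DMSO was not given in the sources used here. The 22 groups held 60 libraries, with totals of 19.45 to 30.87 M counts and a median of 26.05 M. SW1783 is 1 cell line and nothing states that libraries of a group came from separate cultures, so p-values measure the spread between libraries, which may be technical.

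Every sample title, vehicle included, carries the same batch label, BatchA, and the sets used here are read from the sample codes alone. By the sample codes the vehicle libraries form 1 set, the 3 drugs another, and the extracts by pairs in the others: poria with atractylodes, licorice with ginseng, and angelica with peony. What a set stands for is not given in the sample labels. Against vehicle, a set and its treatments therefore cannot be told apart, whereas comparisons of doses, of drugs with each other or of extracts of 1 set stay within a set. All comparisons with vehicle share its 3 libraries. Among the astroglial markers, VIM, CD44, GJA1 and SOX9 were well expressed, at 5851, 2670.2, 248 and 79.1 CPM in vehicle before scaling between libraries, while GFAP, S100B, AQP4, ALDH1L1 and FABP7 were at 0 or at most 0.116 CPM there. Of the rest of the astroglial list, SLC1A3 had 21.3, NES 6.06 and SLC1A2 0.2 CPM in vehicle. The labelled astrocytoma line thus had several markers of differentiated astrocytes at or near 0, GFAP among them, but expressed others, SLC1A3 among them.

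RefSeq start regions on GRCh38.p14 were at hand for 7 of the 10 members, in 12 windows; ITGA3, ITGB3 and ITGB4 had none in that table. Each window holds the 250 bases before the RefSeq start. For the 3 members with a single window, the bases ahead of the gene as GENCODE 29 places it are shown, because these genes moved in different ways: ITGA2 was higher with wortmannin and thioridazine, ITGA5 was lower with each drug, and ITGB8 was lower with licorice and higher with wortmannin. Capitals mark GGGCGG or its reverse complement, the GC box of SP1-type factors. GENCODE 29 starts these genes further upstream than RefSeq does, so 26 bases of the ITGA2 window, 194 of the ITGA5 window and 198 of the ITGB8 window lie within its gene and are not printed. The stretches are read 5′ to 3′ on the strand of the gene and lie at chr5:52989102-52989325 on the plus strand for ITGA2, at chr12:54419461-54419516 on the minus strand for ITGA5, and at chr7:20330650-20330701 on the plus strand for ITGB8.
ITGA2: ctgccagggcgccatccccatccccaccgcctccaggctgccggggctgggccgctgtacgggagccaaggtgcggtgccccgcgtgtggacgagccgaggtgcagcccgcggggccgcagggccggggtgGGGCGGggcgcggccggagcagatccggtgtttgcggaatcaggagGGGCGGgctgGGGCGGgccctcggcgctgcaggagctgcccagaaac
ITGA5: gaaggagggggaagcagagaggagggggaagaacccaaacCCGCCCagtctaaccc
ITGB8: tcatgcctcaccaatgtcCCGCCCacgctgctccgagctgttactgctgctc
The whole ITGA2 window held 4 GC boxes, all on the strand of the gene, of which 3 are in the stretch shown. On the other strand, the ITGB8 window held 2, of which 1 is shown, and the ITGA5 window 1. Of all 35116 windows of this length, 42.6% held at least 1 GC box on either strand, against 7 of the 12 windows of the members. GTAAACA, the site of FOXO factors, which PI3-kinase signalling keeps out of the nucleus, was in 0 of the 12 windows and in 2.98% of all windows. TGANTCA, the AP-1 site, was also in 0 of the 12 windows and in 6.57% of all windows. CACGTG, the E-box, was in 1 window, of ITGA6, against 6.34% of all windows, and TGACNNNGC, the core of the antioxidant response element, was in 1 window each of ITGB5 and ITGB1, against 10.9% of all windows. These are matches of letters in short windows and say nothing on binding.

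In vehicle cells the members spanned a wide range once levels were divided by exon length. ITGB1, the common β subunit, was highest with 324 ± 0.628 CPM per kb of merged exons (SD, n = 3), and ITGA5 and ITGA3 followed with 191 ± 3.07 and 164 ± 1.09 CPM per kb. ITGA2 had 33.1 ± 1.09 CPM per kb, ITGAV 21.3 ± 0.234, ITGB5 14.9 ± 0.173 and ITGA6 8.54 ± 0.215. At the low end stood ITGB8 with 3.85 ± 0.136, ITGB4 with 3.23 ± 0.131 and ITGB3 with 2.67 ± 0.171 CPM per kb. The vehicle libraries of neighbours in this order did not overlap for any of the 10 genes. ITGB1 and its partners ITGA5 and ITGA3 thus led the order, and ITGB8, ITGB4 and ITGB3 closed it. The spread between libraries does not cover an error in the exon length, and without that division the order changed in part. By CPM in vehicle ITGA3 had 1610 against 1451 for ITGA5, and ITGB8 had 58.3 against 55.8 for ITGA6.

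**Figure D1:**
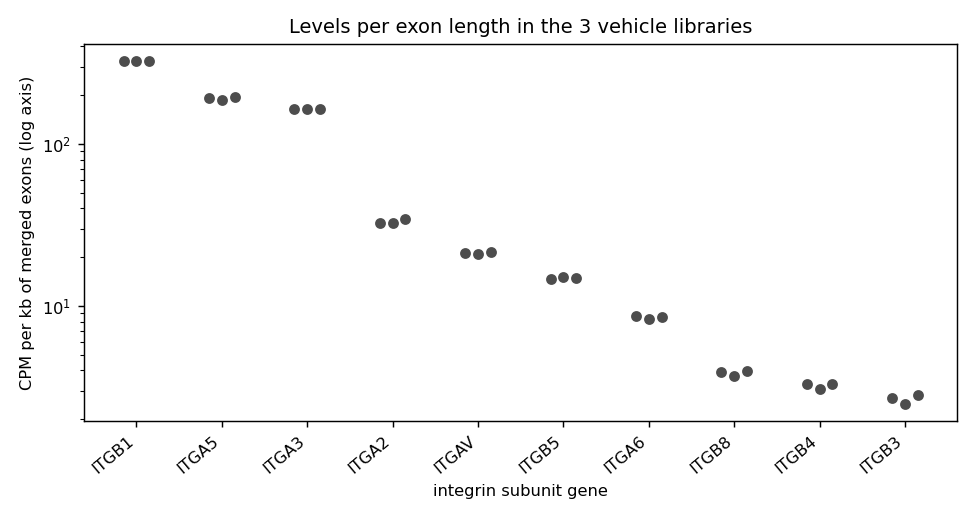
Level of each integrin subunit gene in the 3 vehicle libraries, in CPM per kb of merged exons on a log axis; each point is a library. ITGB1, ITGA5 and ITGA3 stand above 160 CPM per kb, and ITGB8, ITGB4 and ITGB3 lie between 2.48 and 4.0 CPM per kb.

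All 10 members differed among the 22 groups in an edgeR F-test over the 21 group coefficients at an adjusted p under 0.05, as did 71.7% of all genes tested. The size of the differences set the members apart. ITGB4 had its highest group mean with LY294002, at 61.2 ± 2.89 CPM, and its lowest with atractylodes high, at 7.76 ± 1.64 CPM (SD, n = 3 each), a ratio of 7.89, and its F value ranked 69 among 17919 genes. The ratio of the highest to the lowest group mean was 2.23 for ITGA2, 2.22 for ITGB3, 1.96 for ITGB5 and 1.79 for ITGB8. It was between 1.21 and 1.34 for ITGA3, ITGA5, ITGA6, ITGB1 and ITGAV. The most abundant members were thus among those that varied least.

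**Figure D2:**
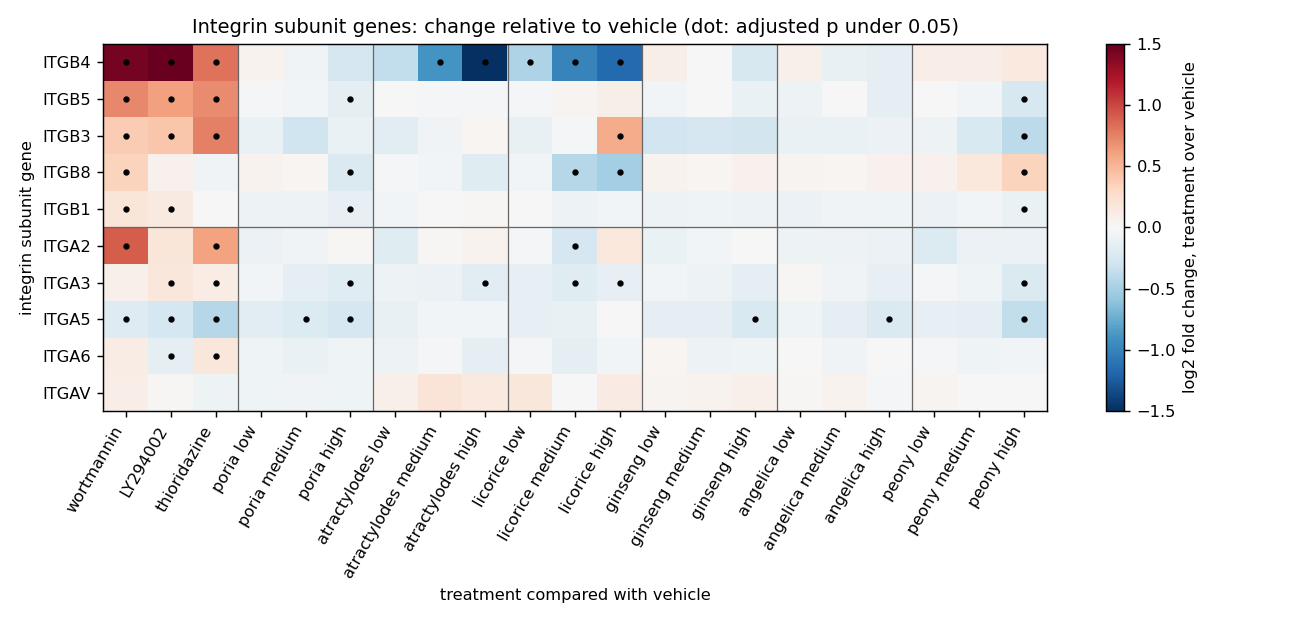
Change of each integrin subunit gene relative to vehicle, as log2 fold change by colour (red: higher, blue: lower), for the 3 drugs and for each extract from the low to the high dose; dots mark an adjusted p under 0.05. ITGB4 spans the whole scale, from 1.49 with LY294002 to -1.49 with atractylodes high, and ITGAV carries no dot.

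Of 210 comparisons of a member with vehicle, 47 passed the threshold of an adjusted p under 0.05, here written as called. Of all genes tested, the share called against vehicle ran from 0.419% with poria low to 48.4% with thioridazine. A share pooled over these comparisons is not given, so the pooled count of members cannot be set against it. With wortmannin 7 of the 10 members were called, 6 higher and 1 lower, where 31.7% (15.4% higher and 16.4% lower) of all genes were called. With LY294002 7 were called, 5 higher and 2 lower, where 39.3% (19.4% higher and 19.9% lower) of all genes were called. With thioridazine 7 were called, 6 higher and 1 lower, where 48.4% (24.6% higher and 23.8% lower) of all genes were called. ITGB4, ITGB5 and ITGB3 were higher and ITGA5 was lower in each of the 3 drug groups. The median log2 fold change of the 10 members was 0.26 with wortmannin, 0.15 with LY294002 and 0.14 with thioridazine, against 0.017 to 0.019 over all genes tested.

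ITGB4 (chr17:75721328-75757818, plus strand, GRCh38), the laminin-binding β subunit of hemidesmosomes, gained most with the PI3-kinase inhibitors. It had 58.0, 58.2 and 61.3 CPM in the 3 wortmannin libraries and 58.1, 63.9 and 61.5 CPM in the 3 LY294002 libraries, against 22.3, 20.8 and 22.4 CPM in the vehicle libraries. Thioridazine libraries had 38.5, 37.2 and 39.2 CPM. Every drug library lay above every vehicle library, and thioridazine stood between the inhibitors and vehicle. ITGB4 was 2.71-fold higher with wortmannin (log2 fold change 1.44, SE 0.089, adjusted p = 4.09e-18), 2.80-fold higher with LY294002 (log2 fold change 1.49, SE 0.089, adjusted p = 8.01e-19) and 1.76-fold higher with thioridazine (log2 fold change 0.81, SE 0.090, adjusted p = 8.38e-11). Against the other drugs of the set, thioridazine was lower, with a log2 fold change of -0.67 against LY294002 (adjusted p = 3.66e-09) and -0.63 against wortmannin (adjusted p = 2.23e-08). Wortmannin over LY294002 gave -0.048, with a 95% interval of -0.21 to 0.12 (adjusted p = 0.768), so a difference of that size could not be told from the spread between libraries.

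**Figure D3:**
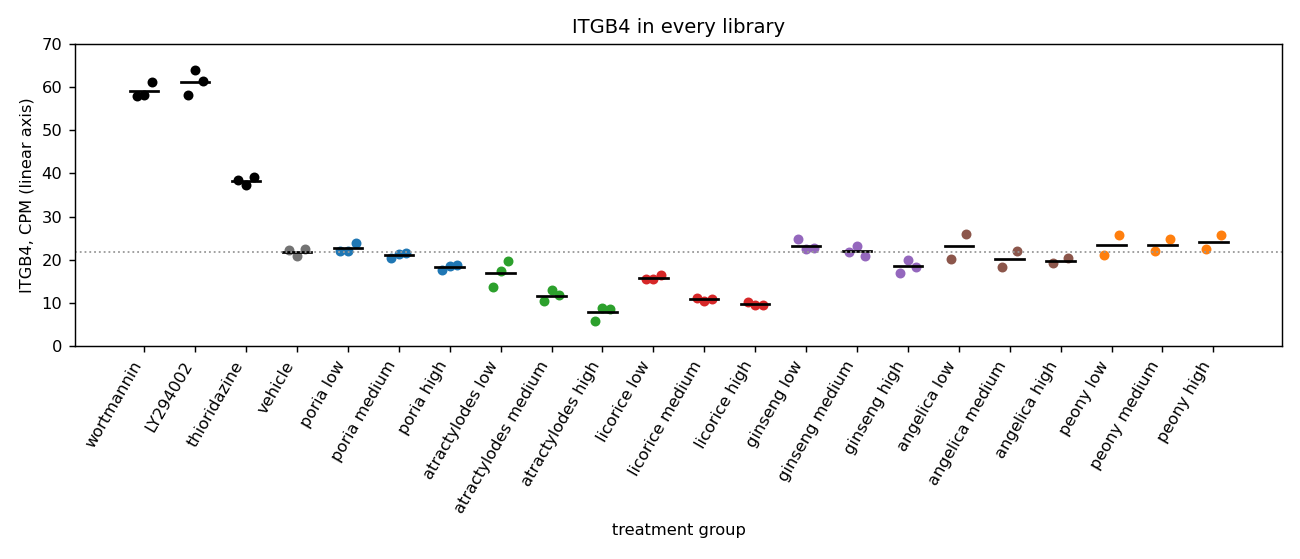
ITGB4 in CPM in every library, with the 3 drugs, vehicle and then each extract from the low to the high dose; points are libraries, short lines are group means and the dotted line is the vehicle mean. The wortmannin and LY294002 libraries lie between 58.0 and 63.9 CPM, and the atractylodes high libraries between 5.87 and 8.80 CPM.

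ITGB5 (chr3:124761948-124901418, minus strand), the partner of ITGAV in a vitronectin receptor, rose with each drug. It had 159, 158 and 159 CPM with wortmannin, 139.6, 147 and 154 CPM with LY294002 and 162, 149.7 and 158 CPM with thioridazine, against 94.996, 97.2 and 96.1 CPM in vehicle. All 9 drug libraries were above the 3 vehicle libraries, and the drug groups overlapped with each other in part. The folds were 1.65 with wortmannin (log2 fold change 0.73, SE 0.045, adjusted p = 9.29e-19), 1.53 with LY294002 (log2 fold change 0.61, SE 0.045, adjusted p = 2.39e-16) and 1.63 with thioridazine (log2 fold change 0.70, SE 0.045, adjusted p = 1.31e-19). Between drugs, the log2 fold change was 0.11 for wortmannin over LY294002 (95% interval 0.023 to 0.20, adjusted p = 0.0767), 0.089 for thioridazine over LY294002 (0.00038 to 0.18, adjusted p = 0.105) and -0.022 for thioridazine over wortmannin (-0.11 to 0.066, adjusted p = 0.743).

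ITGB3 (chr17:47253846-47311816, plus strand), the other vitronectin receptor β subunit, known best from platelets and osteoclasts, had its highest mean of all 22 groups with thioridazine. Its libraries had 18.7, 20.7 and 20.3 CPM with thioridazine, 16.1, 15.0 and 15.7 CPM with LY294002 and 16.0, 14.9 and 15.0 CPM with wortmannin, against 11.9, 10.9 and 12.4 CPM in vehicle. No drug library overlapped the vehicle libraries, and the thioridazine libraries lay above those of both inhibitors. The increase was 1.69-fold with thioridazine (log2 fold change 0.76, SE 0.086, adjusted p = 7.37e-11), 1.33-fold with LY294002 (log2 fold change 0.42, SE 0.089, adjusted p = 0.000135) and smallest with wortmannin (log2 fold change 0.38, SE 0.088, adjusted p = 0.000475). Within the set of drugs, thioridazine was also higher than LY294002 (log2 fold change 0.35, SE 0.085, adjusted p = 0.000708) and than wortmannin (log2 fold change 0.38, SE 0.084, adjusted p = 0.000214).

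ITGB8 and ITGB1 changed less. ITGB8 (chr7:20330702-20415754, plus strand), the β subunit that binds latent TGF-β with ITGAV, had 75.9, 72.5 and 72.3 CPM with wortmannin, 67.9, 56.9 and 57.7 CPM with LY294002 and 56.4, 53.4 and 58.9 CPM with thioridazine, against 59.0, 56.0 and 59.9 CPM in vehicle. The wortmannin libraries lay above all others, and those of LY294002 and thioridazine overlapped vehicle. ITGB8 was higher with wortmannin (log2 fold change 0.34, SE 0.068, adjusted p = 8.8e-05), and wortmannin was also above LY294002 (log2 fold change 0.27, SE 0.068, adjusted p = 0.00314); thioridazine was below wortmannin (log2 fold change -0.39, SE 0.068, adjusted p = 5.8e-06). ITGB1 (chr10:32900319-33005792, minus strand) had 2195, 2206 and 2205 CPM with wortmannin, 2189, 2112 and 2088 CPM with LY294002 and 1965, 1929 and 1919 CPM with thioridazine, against 1943, 1951 and 1947 CPM in vehicle. Both inhibitors lay above vehicle, wortmannin by 1.13-fold (log2 fold change 0.18, SE 0.031, adjusted p = 5.15e-06) and LY294002 by 1.09-fold (log2 fold change 0.13, SE 0.031, adjusted p = 0.000507), while the thioridazine libraries overlapped vehicle (log2 fold change -0.0068, 95% interval -0.068 to 0.054, adjusted p = 0.875).

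Among the α subunits, ITGA2 (chr5:52989326-53094779, plus strand), which binds collagen with ITGB1, moved most. Its libraries had 497, 499 and 473 CPM with wortmannin, 319, 286 and 284 CPM with LY294002 and 393, 374 and 425 CPM with thioridazine, against 257, 257 and 272 CPM in vehicle. The 3 drug groups did not overlap with each other, and the LY294002 libraries were the ones closest to vehicle. ITGA2 was 1.87-fold higher with wortmannin (log2 fold change 0.90, SE 0.077, adjusted p = 6.16e-13) and 1.52-fold higher with thioridazine (log2 fold change 0.60, SE 0.077, adjusted p = 6.18e-09), and LY294002 gave a log2 fold change of 0.18 that did not pass (adjusted p = 0.0592). The inhibitors differed from each other: wortmannin over LY294002 gave a log2 fold change of 0.73 (SE 0.077, adjusted p = 1.15e-09).

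ITGA5 (chr12:54395261-54419460, minus strand), which forms the classical fibronectin receptor with ITGB1, was the only member lower in each drug group. It had 1259, 1270.2 and 1273 CPM with wortmannin, 1203, 1246 and 1168 CPM with LY294002 and 1106, 1061 and 1074 CPM with thioridazine, against 1461, 1424 and 1467 CPM in vehicle. Every drug library was below every vehicle library, thioridazine the lowest. ITGA5 was lower with thioridazine (log2 fold change -0.43, SE 0.041, adjusted p = 6.33e-13), with LY294002 (log2 fold change -0.27, SE 0.041, adjusted p = 4.89e-07) and with wortmannin (log2 fold change -0.19, SE 0.041, adjusted p = 0.000158). Within the set, thioridazine was lower than LY294002 (-0.16, adjusted p = 0.00143) and than wortmannin (-0.23, adjusted p = 6.61e-06). The mean of ITGA5 was also below vehicle in all 18 extract groups, so vehicle was the highest of the 22 groups for this gene.

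The laminin receptor subunits ITGA3 and ITGA6 and the vitronectin receptor subunit ITGAV shifted by small amounts with the drugs. ITGA3 (chr17:50055968-50090481, plus strand) had 1832, 1874 and 1716 CPM with LY294002 and 1749.8, 1721 and 1735 CPM with thioridazine, against 1622, 1601 and 1608 CPM in vehicle, and it was higher with LY294002 (log2 fold change 0.17, SE 0.046, adjusted p = 0.00293) and with thioridazine (log2 fold change 0.11, SE 0.046, adjusted p = 0.0483). The thioridazine call held without vehicle replicate 1 and was lost without any 1 of the other 5 libraries, with an adjusted p of up to 0.11. ITGA6 (chr2:172427354-172506282, plus strand) had 65.7, 61.1 and 61.0 CPM with thioridazine, 55.5, 51.3 and 44.5 CPM with LY294002 and 63.2, 57.2 and 60.9 CPM with wortmannin, against 56.9, 54.2 and 56.3 CPM in vehicle. It was higher with thioridazine (log2 fold change 0.17, SE 0.054, adjusted p = 0.00823; without thioridazine replicate 1 0.13, adjusted p = 0.0735) and lower with LY294002 (log2 fold change -0.15, SE 0.055, adjusted p = 0.0275), where 1 library overlapped vehicle. That second call was lost without vehicle replicate 1 (-0.12, adjusted p = 0.117), vehicle replicate 3 (-0.13, adjusted p = 0.0904), LY294002 replicate 2 (-0.15, adjusted p = 0.0532) or LY294002 replicate 3 (-0.055, adjusted p = 0.488). Between drugs, ITGA6 was higher with wortmannin than with LY294002 (log2 fold change 0.26, SE 0.055, adjusted p = 0.000372) and higher with thioridazine than with LY294002 (log2 fold change 0.31, SE 0.055, adjusted p = 3.69e-06).

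**Figure D4:**
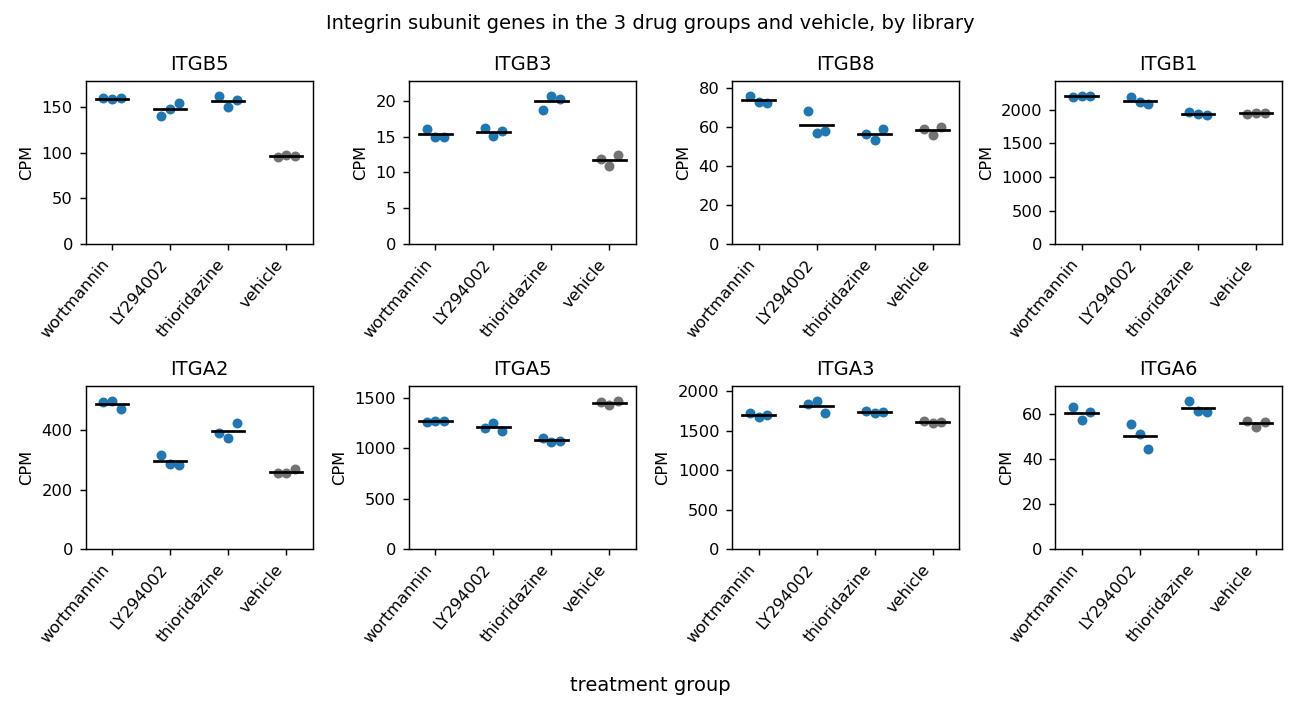
CPM of 8 integrin subunit genes in the libraries treated with wortmannin, LY294002 and thioridazine and in vehicle; points are libraries and short lines are group means, on linear axes from 0. ITGB5 and ITGB3 are above vehicle in every drug library and ITGA5 is below it, while ITGA2 is highest with wortmannin, at 473 to 499 CPM.

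ITGAV (chr2:186590065-186680901, plus strand) was called in 0 of its 21 comparisons with vehicle by edgeR, with 4 at an unadjusted p under 0.05 and 1 called by DESeq2. Its log2 fold changes ran from -0.071 to 0.20. Within sets it was lower with thioridazine than with wortmannin (165, 157 and 178 CPM against 192, 188 and 182 CPM; log2 fold change -0.17, SE 0.056, adjusted p = 0.013), a call lost without wortmannin replicate 1 (-0.14, adjusted p = 0.0712) or thioridazine replicate 2 (-0.12, adjusted p = 0.132). It was also lower with poria high than with atractylodes high (169.6, 172 and 160.3 CPM against 195, 195 and 193 CPM; log2 fold change -0.22, SE 0.056, adjusted p = 0.00387). In both of these comparisons the libraries of the groups did not overlap.

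Counted within the set of drugs, wortmannin over LY294002 had 3 members called, all higher with wortmannin (ITGA2, ITGA6 and ITGB8). Of all genes 16.4% were called (8.79% higher and 7.57% lower). The count of members was 6 without the 5 libraries that stood apart, none of which is a drug library. The share of all genes called in that fit is not given here, so the 6 cannot be set against it. Thioridazine over LY294002 had 6 called, 3 higher (ITGA2, ITGA6, ITGB3) and 3 lower (ITGA5, ITGB1, ITGB4), where 40% (19.5% higher and 20.4% lower) of all genes were called. Thioridazine over wortmannin had 7 called, ITGB3 higher and ITGA2, ITGA5, ITGAV, ITGB1, ITGB4 and ITGB8 lower, where 38.7% (18.9% higher and 19.8% lower) of all genes were called.

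Among the extracts, ITGB4 both fell with each dose and was called lower than vehicle with 2 of the 6. With atractylodes it had 22.3, 20.8 and 22.4 CPM in vehicle, 13.6, 17.3 and 19.7 CPM at the low dose, 10.4, 13.0 and 11.7 CPM at the medium dose and 5.87, 8.80 and 8.60 CPM at the high dose. The medium and high dose libraries lay below all of vehicle and did not overlap each other, and so did the low dose libraries lie below vehicle. The log2 fold change against vehicle was -0.37 at the low dose (adjusted p = 0.0511, not called), -0.90 at the medium dose (SE 0.10, adjusted p = 2.02e-08) and -1.49 at the high dose (SE 0.11, adjusted p = 2.79e-15). Within the set, high over low dose gave -1.12 (SE 0.11, adjusted p = 2.01e-10). Replicate 1 of atractylodes high stood apart from its group mates over all genes, and without it the high dose still gave -1.32, adjusted p = 1.99e-13 against vehicle.

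With licorice ITGB4 had 22.3, 20.8 and 22.4 CPM in vehicle, 15.6, 15.5 and 16.3 CPM at the low dose, 11.2, 10.5 and 10.9 CPM at the medium dose and 10.3, 9.48 and 9.40 CPM at the high dose. Each step was lower without overlap, and the low dose was already below vehicle. The log2 fold change was -0.47 at the low dose (SE 0.097, adjusted p = 0.00314), -1.01 at the medium dose (SE 0.10, adjusted p = 1.28e-10) and -1.16 at the high dose (SE 0.10, adjusted p = 7.61e-13), and -0.70 for high over low (SE 0.11, adjusted p = 2.08e-06). The other 4 extracts gave no call on ITGB4 against vehicle. With poria ITGB4 was lower at the high than at the low dose (17.6, 18.6 and 18.8 CPM against 21.9, 22.1 and 23.9 CPM; log2 fold change -0.31, SE 0.096, adjusted p = 0.0487), but that call was lost in each of the 6 fits that left out 1 library, with an adjusted p of up to 0.201. Between extracts of a set at the high dose, ITGB4 was 2.36-fold higher with poria than with atractylodes (log2 fold change 1.24, SE 0.11, adjusted p = 1.97e-12) and lower with licorice than with ginseng (log2 fold change -0.92, SE 0.11, adjusted p = 8.51e-10).

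**Figure D5:**
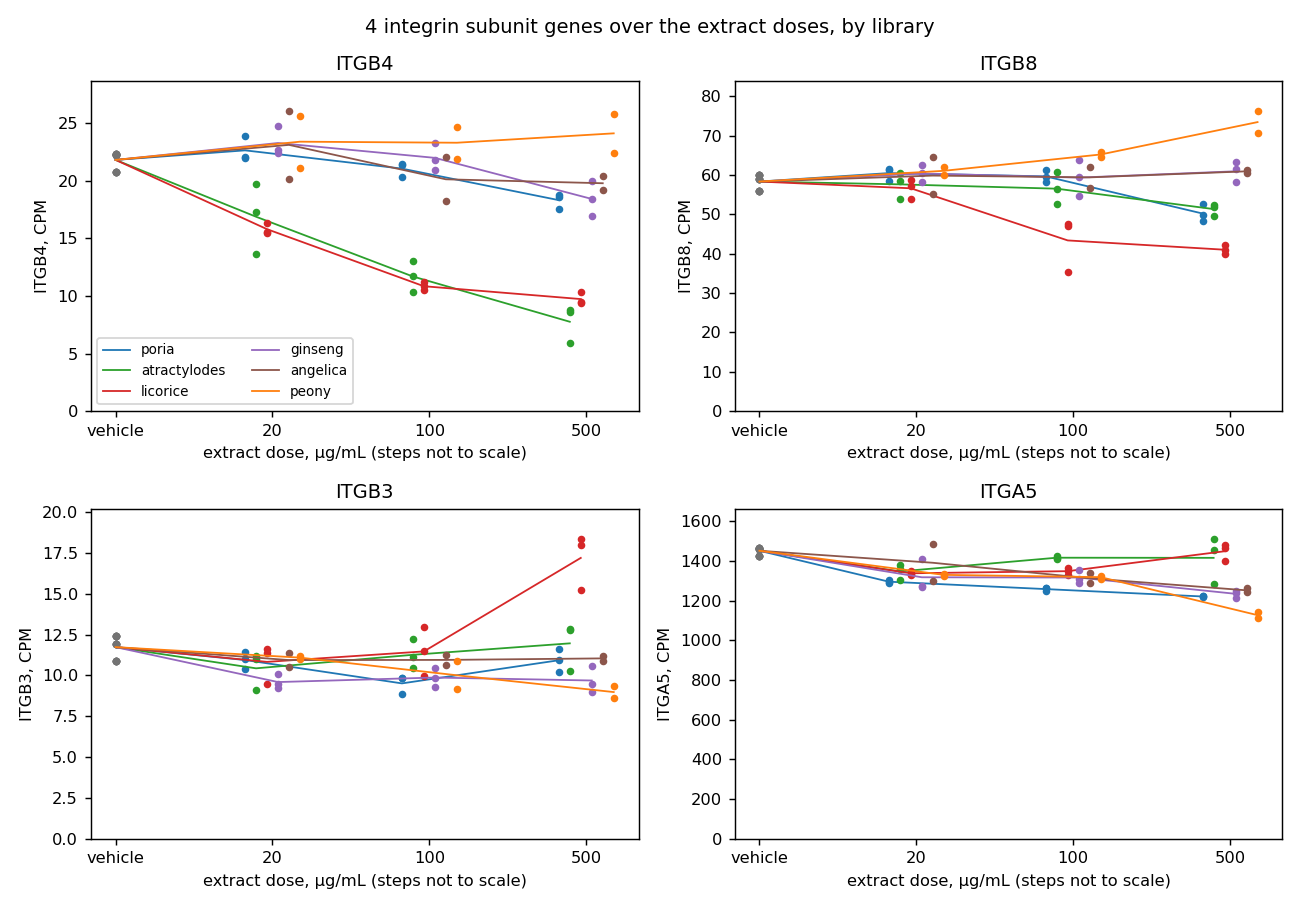
CPM of ITGB4, ITGB8, ITGB3 and ITGA5 in vehicle and at 20, 100 and 500 µg/mL of the 6 extracts; points are libraries, lines join group means, and the dose axis has equal steps. ITGB4 declines most with dose for atractylodes and licorice, and less for poria, ginseng and angelica. ITGB8 declines for licorice and is higher for peony, and ITGB3 is high only at 500 µg/mL of licorice, at 15.2 to 18.4 CPM.

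ITGB8 and ITGB3 also responded to licorice, in opposite directions. ITGB8 had 59.0, 56.0 and 59.9 CPM in vehicle, 58.6, 57.2 and 54.0 CPM at the low dose, 47.0, 47.7 and 35.4 CPM at the medium dose and 42.2, 39.8 and 40.9 CPM at the high dose. The medium and high doses were below vehicle without overlap, and 1 medium library, replicate 3 with 35.4 CPM, was the lowest of all 60 libraries and stood apart over all genes. Without it the medium dose gave -0.30, adjusted p = 0.000947. With all libraries the log2 fold change was -0.43 at the medium dose (SE 0.070, adjusted p = 7.66e-06) and -0.51 at the high dose (SE 0.071, adjusted p = 9.51e-08), and -0.47 for high over low (SE 0.071, adjusted p = 1.21e-06). ITGB3 had 11.9, 10.9 and 12.4 CPM in vehicle, 11.6, 9.47 and 11.4 CPM at the low, 12.9, 11.5 and 9.94 CPM at the medium and 15.2, 18.0 and 18.4 CPM at the high dose. Its increase was confined, among the 3 licorice doses, to the high one (log2 fold change 0.55, SE 0.087, adjusted p = 1.25e-06), with 0.67 for high over low (adjusted p = 4.46e-08). At the high dose licorice also exceeded ginseng for ITGB3 (log2 fold change 0.83, SE 0.090, adjusted p = 8.07e-11) and was below it for ITGB8 (log2 fold change -0.57, SE 0.071, adjusted p = 4.05e-09).

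The other members called with licorice moved less. At the high dose 4 members were called, ITGB3 higher and ITGB4, ITGB8 and ITGA3 lower, where 30.9% (15.9% higher and 15% lower) of all genes were called. At the medium dose 4 were called, all lower (ITGB4, ITGB8, ITGA2 and ITGA3), where 25.2% (12.4% higher and 12.8% lower) of all genes were called, and at the low dose 1, ITGB4, where 3.29% (1.53% higher and 1.76% lower) were called. The ITGA3 call at the high dose (log2 fold change -0.12, SE 0.046, adjusted p = 0.0439) was lost without any 1 of the 3 vehicle libraries or without licorice high replicate 2 or 3, with an adjusted p of up to 0.153. For ITGA2 the medium dose libraries had 237, 254 and 168 CPM (log2 fold change -0.25, SE 0.077, adjusted p = 0.0126), of which replicate 3 was the lowest of all 60 libraries and stood apart over all genes; without it the log2 fold change was -0.092, adjusted p = 0.347, and without vehicle replicate 3 it was -0.22, adjusted p = 0.0626. High over low dose had 4 members called (ITGB3 and ITGA5 higher, ITGB4 and ITGB8 lower), where 18.2% (9.02% higher and 9.14% lower) of all genes were called. ITGA5 in that comparison (1482, 1465 and 1397 CPM at the high dose against 1335, 1349.9 and 1327 CPM at the low dose; log2 fold change 0.11, SE 0.041, adjusted p = 0.0432) was not called in 5 of the 6 fits that left out 1 library, with an adjusted p of up to 0.131; the call held without licorice high replicate 3. Licorice high over ginseng high had 5 called, where 34.2% (17.2% higher and 17% lower) of all genes were called: ITGB3, ITGA5 (0.23, adjusted p = 9.74e-06) and ITGB5 (0.19, adjusted p = 0.000636) higher and ITGB4 and ITGB8 lower.

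With atractylodes high 2 members were called, ITGB4 and ITGA3, both lower, where 13.9% (7.24% higher and 6.63% lower) of all genes were called. ITGA3 had 1277, 1503 and 1521 CPM against 1622, 1601 and 1608 CPM in vehicle (log2 fold change -0.17, SE 0.046, adjusted p = 0.00982), and the low value belonged to replicate 1, without which 1 member was called and ITGA3 gave -0.088, adjusted p = 0.299. At the medium dose 1 member, ITGB4, was called, where 1.06% (0.675% higher and 0.385% lower) of all genes were; without atractylodes medium replicate 3 there were 2. High over low dose had 1 called, ITGB4, where 4.1% (2.24% higher and 1.86% lower) of all genes were called. The count was 3 without atractylodes high replicate 1 and 2 without atractylodes low replicate 2. Shares of all genes in fits that left out a library are not given here.

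Peony high had 6 members called, ITGB8 higher and ITGA3, ITGA5, ITGB1, ITGB3 and ITGB5 lower, where 20.7% (10.3% higher and 10.4% lower) of all genes were called. ITGA5 had 1112 and 1140.4 CPM against 1461, 1424 and 1467 CPM in vehicle (log2 fold change -0.36, SE 0.047, adjusted p = 4.15e-08). ITGB8 had 76.2 and 70.6 CPM against 59.0, 56.0 and 59.9 CPM in vehicle (log2 fold change 0.33, SE 0.076, adjusted p = 0.00122), and ITGB3 had 9.36 and 8.60 CPM against 11.9, 10.9 and 12.4 CPM (log2 fold change -0.39, SE 0.11, adjusted p = 0.0065). None of these groups overlapped vehicle. With 2 peony libraries, leaving 1 out left 1 library in the group, and most of these calls were then lost. Without replicate 1 ITGB8 gave 0.28 (0.33 with both), ITGA3 -0.17 (-0.22), ITGB5 -0.19 (-0.24) and ITGB1 -0.082 (-0.098). Without replicate 2 ITGB3 gave -0.35 (-0.39 with both). Whether a deviating library or the smaller group lost these calls was not tested. Replicate 1 was on the list of libraries that stood apart over all genes, but with 2 libraries the spread cannot say which did. ITGB1 also lost its call without any 1 of the vehicle libraries. ITGA5 kept its call in every alternative.

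High over low dose of peony had 4 called, ITGB8 higher and ITGA3, ITGA5 and ITGB5 lower, where 5.9% (2.78% higher and 3.13% lower) of all genes were called. ITGA5 had 1112 and 1140.4 CPM at the high dose and 1325 and 1333 CPM at the low dose (log2 fold change -0.24, SE 0.051, adjusted p = 0.00125), without overlap, and this call held in every alternative. The count fell to 1 without peony high replicate 1 or peony low replicate 1 and to 2 without peony low replicate 2. ITGA3 then gave -0.15, adjusted p = 0.39 without peony high replicate 1, ITGB5 -0.19, adjusted p = 0.2 and ITGB8 0.21, adjusted p = 0.416. Without peony low replicate 1 the values were -0.19, adjusted p = 0.163 for ITGA3, -0.18, adjusted p = 0.204 for ITGB5 and 0.28, adjusted p = 0.166 for ITGB8. Without peony low replicate 2 they were -0.21, adjusted p = 0.105 for ITGA3 and 0.24, adjusted p = 0.21 for ITGB8.

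Poria high had 5 members called, all lower (ITGA3, ITGA5, ITGB1, ITGB5 and ITGB8), where 11.6% (5.17% higher and 6.41% lower) of all genes were called. ITGA5 had 1221, 1222 and 1218 CPM against 1461, 1424 and 1467 CPM in vehicle (log2 fold change -0.25, SE 0.041, adjusted p = 1.75e-05), ITGA3 had 1397, 1424 and 1422 CPM against 1622, 1601 and 1608 CPM (log2 fold change -0.19, SE 0.046, adjusted p = 0.00394) and ITGB1 had 1785, 1794 and 1776 CPM against 1943, 1951 and 1947 CPM (log2 fold change -0.13, SE 0.031, adjusted p = 0.0035). These 3 groups did not overlap vehicle, and their calls held in every alternative. The calls on ITGB5 (log2 fold change -0.13, SE 0.046, adjusted p = 0.0476) and ITGB8 (log2 fold change -0.22, SE 0.070, adjusted p = 0.0321) were both lost, leaving 3 members called, without vehicle replicate 1, vehicle replicate 3, poria high replicate 2 or poria high replicate 3, and that on ITGB5 also without vehicle replicate 2; the adjusted p reached 0.322 for ITGB5 and 0.147 for ITGB8. ITGA5 was also called at the medium dose of poria (log2 fold change -0.21, SE 0.041, adjusted p = 0.00228), the 1 member called there, where 1.47% (0.43% higher and 1.04% lower) of all genes were called.

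High over low dose of poria had 3 members called, ITGA3, ITGB4 and ITGB8, all lower, where 5.51% (2.73% higher and 2.78% lower) of all genes were called. ITGA3 had 1397, 1424 and 1422 CPM at the high dose and 1569.5, 1555 and 1567 CPM at the low dose, and ITGB8 had 52.6, 48.2 and 49.8 CPM and 61.3, 58.5 and 61.6 CPM (log2 fold change -0.27, SE 0.070, adjusted p = 0.0116). The libraries of these doses did not overlap, but the count fell to 0 without poria high replicate 2 or poria low replicate 3 and to 1 without any other library of the comparison; ITGB8 then gave -0.24, adjusted p = 0.0783 and -0.26, adjusted p = 0.0527. Poria high over atractylodes high had 4 called, ITGB4 higher and ITGA5 (-0.21, adjusted p = 0.00012), ITGAV and ITGB1 (-0.15, adjusted p = 0.000318) lower, where 16.6% (7.72% higher and 8.9% lower) of all genes were called. With the groups alone in the fit, the calls on ITGA5 (-0.22, adjusted p = 0.0976) and ITGB1 (-0.15, adjusted p = 0.149) were lost.

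With ginseng and angelica 1 member each was called at the high dose, ITGA5 in both, but the count depended on the setting. For ginseng high it was 4 by DESeq2, 5 without the 5 libraries that stood apart and 6 with the groups alone, and for angelica high it was 2, 2 and 3 in the same settings. The share of all genes called in such settings, or at an unadjusted p under 0.05, is not given here. With ginseng high ITGA5 had 1239, 1211 and 1250.3 CPM (log2 fold change -0.23, SE 0.041, adjusted p = 0.000115), where 7.25% (3.05% higher and 4.2% lower) of all genes were called, and with angelica high 1262 and 1241 CPM (log2 fold change -0.21, SE 0.046, adjusted p = 0.00224), where 6.46% (2.94% higher and 3.53% lower) were called, against 1461, 1424 and 1467 CPM in vehicle. All 5 of these libraries were below the vehicle libraries. Without angelica high replicate 2 the count was 0 by edgeR and ITGA5 gave -0.20, adjusted p = 0.0756, and without ginseng high replicate 2 there were 2 calls for ginseng high. High over low dose of the same extracts gave 0 calls by edgeR, where 0.653% of all genes were called for ginseng and 0.943% for angelica. At an unadjusted p under 0.05 there were 2 members each, and DESeq2 called 0 in both; without angelica low replicate 1 there was 1 for angelica. Angelica high over peony high also had 0 calls by edgeR, 4 at an unadjusted p under 0.05 and 1 by DESeq2, where 4.34% of all genes were called, and 2 without peony high replicate 2.

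Of the 12 groups at the medium and low doses, 4 had a member called and 8 had none by edgeR. Those with none were poria low (0.419% of all genes called), atractylodes low (0.804%), ginseng medium (0.569%) and low (0.592%), angelica medium (2.91%) and low (1.75%) and peony medium (2.55%) and low (5.23%). In these 8 groups, 1 to 3 members had an unadjusted p under 0.05, and DESeq2 called 1 or 2 members. The shares of all genes above are those of the edgeR calls, so the latter counts cannot be set against them. Atractylodes low had 1 call without its replicate 3 and ginseng low had 1 without its replicate 1. The shares of all genes in those fits are not given here either. Over the 18 extract groups, the mean was below vehicle in 18 for ITGA5, 17 for ITGA3, 16 each for ITGA6, ITGB1, ITGB3 and ITGB5, 14 for ITGA2, 11 for ITGB4, 7 for ITGB8 and 5 for ITGAV, and all of these share the same vehicle libraries.

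Each member except ITGA3 overlaps other genes in GENCODE 29, and how the counting treated strand was not stated in the sources used here. ITGB5 overlaps 3 genes on its own strand, and ITGB3 and ITGB8 overlap 1 each. The part of those genes in the counts was not tested. ITGB4 overlaps GALK1, the galactokinase gene on the other strand, but they share 0 bases of exons. GALK1 was higher with thioridazine (log2 fold change 0.67, adjusted p = 7.66e-09) and LY294002 (log2 fold change 0.38, adjusted p = 0.000809), while wortmannin gave a log2 fold change of 0.16, adjusted p = 0.218. With licorice high GALK1 was higher (log2 fold change 0.43, adjusted p = 0.000233) where ITGB4 was lower, and atractylodes high gave a log2 fold change of 0.24, adjusted p = 0.0811. The log2 fold change of GALK1 against vehicle was positive in every treatment group, for instance 0.43 with poria low (adjusted p = 0.0135 by edgeR).

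ITGB4 and ITGA6 are typical of epithelia, so the markers of epithelial, blood and endothelial cells were read beside them. Of these 11 markers, 4 had enough counts to be tested. Levels and sums of markers given here are CPM before scaling between libraries, unlike the CPM of the members. KRT18 and KRT8, keratins of simple epithelia, made up most of the sum, KRT18 with 218 CPM in vehicle. The others tested, PTPRC and PECAM1, are not epithelial. Of the 4, 2 were higher and 1 lower with wortmannin and with LY294002, 1 higher and 3 lower with thioridazine, 3 lower with licorice high and 2 lower with atractylodes high. Over all genes tested, 15.4% were higher and 16.4% lower with wortmannin, 19.4% and 19.9% with LY294002, and 24.6% and 23.8% with thioridazine. With licorice high 15% of all genes were lower, and with atractylodes high 6.63%. EPCAM, CDH1, KRT5, CD3E and HBB were near 0, with at most 0.0349 CPM on average in vehicle. The summed level was 247 to 255 CPM with wortmannin, 272 to 303 CPM with LY294002, 86.1 to 87.1 CPM with thioridazine, 164 to 196 CPM with atractylodes high and 129 to 130.2 CPM with licorice high, against 243 to 252 CPM in vehicle. Where ITGB4 was higher, the sum was thus lower with thioridazine, higher with LY294002 and overlapping vehicle with wortmannin. With atractylodes high and licorice high, where ITGB4 was lower, the sum was lower too. The 12 astroglial markers summed to 6696 to 6966 CPM with thioridazine and 7219.7 to 7494 CPM with licorice high, against 8688 to 8993 CPM in vehicle. VIM and CD44, with 5851 and 2670 CPM in vehicle, made up most of that sum, which says little on the other astroglial markers. The 12 markers of other neural cells summed to 213 to 227 CPM with wortmannin and 109 to 115 CPM with licorice high, against 176 to 179 CPM in vehicle. TUBB3, with 116 CPM in vehicle, made up most of the neural sum. The part of any of these in the results on the integrin genes was not tested, and in bulk RNA fewer cells of a kind and less RNA per cell cannot be told apart.

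Among the other integrin subunit genes, chosen like the following lists with earlier results of these data known, more were higher than lower with each drug. Over all genes tested, 15.4% were higher and 16.4% lower with wortmannin, 19.4% and 19.9% with LY294002, 24.6% and 23.8% with thioridazine, and 15.9% and 15% with licorice high. Of 16 such genes 10 were tested, and 6 were higher with wortmannin (median log2 fold change 0.39, all genes 0.019), 4 higher and 2 lower with LY294002 (0.33, all genes 0.017) and 5 higher and 1 lower with thioridazine (0.13, all genes 0.018). ITGA11, a collagen receptor subunit, was higher with wortmannin (log2 fold change 0.75, adjusted p = 8.82e-14), LY294002 (log2 fold change 0.68, adjusted p = 1.42e-12) and thioridazine (log2 fold change 0.75, adjusted p = 1.01e-14). ITGA1, another collagen receptor subunit, was higher with wortmannin (log2 fold change 0.69, adjusted p = 2.03e-14) and thioridazine (log2 fold change 0.34, adjusted p = 1.52e-06), and ITGAE, the subunit that binds E-cadherin, with LY294002 (log2 fold change 0.43, adjusted p = 0.00289). With licorice high 1 was higher, the leukocyte β subunit ITGB2 (log2 fold change 0.57, adjusted p = 3.5e-08), and 2 were lower, with ITGA11 at -0.37 (adjusted p = 9.08e-06). The median there was -0.028, against 0.0083 over all genes.

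Among genes for proteins that bind integrins inside the cell, more were lower than higher in the 3 drug groups and with licorice high, where 16.4%, 19.9%, 23.8% and 15% of all genes were lower and the median over all genes was between 0.0083 and 0.019. Of 25 such genes, all tested, 1 was higher and 12 were lower with wortmannin (median log2 fold change -0.14), 10 were lower with LY294002 (-0.14), 2 were higher and 17 lower with thioridazine (-0.32) and 4 were higher and 10 lower with licorice high (-0.13). With thioridazine the largest falls were of TNS1, the focal adhesion protein tensin (log2 fold change -1.21, adjusted p = 5.6e-12), and ACTN4, an actin cross-linker (log2 fold change -0.97, adjusted p = 7.96e-22), which also fell with licorice high (TNS1 log2 fold change -0.49, adjusted p = 0.000541; ACTN4 log2 fold change -0.42, adjusted p = 1.02e-08). With wortmannin TLN2, a talin, was lower (log2 fold change -0.44, adjusted p = 3.54e-06), as was TGFB1I1, a paxillin relative (log2 fold change -0.36, adjusted p = 1.46e-06). With LY294002 TNS1 (log2 fold change -0.44, adjusted p = 0.00135) and the adaptor BCAR1 (log2 fold change -0.40, adjusted p = 4.91e-08) were lower.

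For 28 genes of integrin ligands, all tested, the counts stand beside 31.7%, 39.3%, 48.4% and 30.9% of all genes called in either direction with wortmannin, LY294002, thioridazine and licorice high. Of the 28, 14 were higher and 4 lower with wortmannin (median log2 fold change 0.20), 10 higher and 4 lower with LY294002 (0.061), 10 higher and 11 lower with thioridazine (-0.072) and 7 higher and 13 lower with licorice high (-0.14). CCN2, a matricellular protein, was higher with LY294002 (log2 fold change 1.20, adjusted p = 7.44e-12) and wortmannin (log2 fold change 0.66, adjusted p = 4.77e-06), and THBS1, thrombospondin, was lower with LY294002 (log2 fold change -0.67, adjusted p = 4.08e-16). SPP1, osteopontin, was higher with thioridazine (log2 fold change 2.31, adjusted p = 1.37e-27) and wortmannin (log2 fold change 0.58, adjusted p = 1.51e-05). CCN1, a relative of CCN2, was lower with thioridazine (log2 fold change -1.92, adjusted p = 4.33e-16) and higher with licorice high (log2 fold change 0.72, adjusted p = 1.36e-05), where the collagen chain COL1A2 was lower (log2 fold change -0.68, adjusted p = 2.26e-16).

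Membrane partners of integrins, 11 genes set beside the same shares of 31.7%, 39.3%, 48.4% and 30.9% of all genes, had 5 higher and 2 lower with wortmannin (median log2 fold change 0.15), 4 higher and 3 lower with LY294002 (0.08), 5 higher and 3 lower with thioridazine (0.073) and 6 higher and 1 lower with licorice high (0.20). CSPG4, a proteoglycan, was lower with wortmannin (log2 fold change -1.08, adjusted p = 5.92e-14) and LY294002 (log2 fold change -0.82, adjusted p = 6.56e-11), and PLAUR, the urokinase receptor, was higher with wortmannin (log2 fold change 0.39, adjusted p = 1.24e-07). CAV1, caveolin, was lower with thioridazine (log2 fold change -1.19, adjusted p = 3.06e-34), licorice high (log2 fold change -0.73, adjusted p = 2.42e-24) and LY294002 (log2 fold change -0.40, adjusted p = 3.83e-14). SLC3A2, the heavy chain of amino acid transporters that binds β subunits, was higher with thioridazine (log2 fold change 1.21, adjusted p = 1.82e-25) and licorice high (log2 fold change 0.86, adjusted p = 2.45e-18).

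The 3 hemidesmosome partners of ITGB4, which are PLEC, DST and COL17A1, were lower or not called in the drug groups in which ITGB4 was higher. Of all genes tested, 16.4% were lower with wortmannin, 19.9% with LY294002, 23.8% with thioridazine, 15% with licorice high and 6.63% with atractylodes high. With only 3 genes, a relation of such counts to ITGB4 was not tested. With wortmannin PLEC gave -0.079 (adjusted p = 0.558), DST -0.19 (adjusted p = 0.334) and COL17A1 0.059 (adjusted p = 0.791). With LY294002 1 was lower, COL17A1, at 1.05 CPM against 2.95 CPM in vehicle (log2 fold change -1.48, adjusted p = 8.5e-11). All 3 were lower with thioridazine, among them DST, a linker to the cytoskeleton (log2 fold change -0.39, adjusted p = 0.0206), and PLEC, plectin (log2 fold change -0.31, adjusted p = 0.00355). COL17A1 had the middle log2 fold change there, -0.36. With licorice high 2 were lower, among them DST (log2 fold change -0.56, adjusted p = 0.00223), and with atractylodes high 1, PLEC (log2 fold change -0.30, adjusted p = 0.0192). The median log2 fold change of the 3 was -0.079 with wortmannin, -0.07 with LY294002, -0.36 with thioridazine, -0.56 with licorice high and -0.29 with atractylodes high.

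Patterns over the 22 group means of log2 CPM were compared by Pearson's r, as a description, since the groups share sets and the vehicle. Among the 45 pairs of members the highest r was 0.84, for ITGA2 with ITGB5, followed by 0.83 for ITGB3 with ITGB5, and the lowest was -0.59, for ITGA5 with ITGB4. Against 11143 other genes, the patterns most like that of ITGB4 were those of GSN, which encodes the actin-severing protein gelsolin (r = 0.97), VWA5A (0.96) and SNED1 (0.95). Those most like ITGB5 were DKK3, a secreted protein (0.98), UBXN6 (0.98) and NPC2, a lysosomal cholesterol carrier (0.97). For ITGA2 they were ELK3, a transcription factor (0.93), ANTXR2, an anthrax toxin receptor (0.93), and STC1, stanniocalcin (0.92), and for ITGB3 they were P2RX4, an ATP-gated channel, TOM1 and MGAT4B (0.92 each).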

How the data were processed

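The members and gene lists were chosen with earlier results of these data known. Per the labels' protocols, RNA with a RIN above 7 went into a directional MGIEasy library kit and was sequenced in pairs. Per the submitters' processing notes, the tools were RSEM 1.3.3, STAR 2.7.3a, Trim Galore 0.6.5 and FastQC 0.11.9, with build GRCh38; the annotation release and the strand setting are not given in the sources used here. The authors deposited expected counts per gene, in which RSEM divides reads shared between genes or isoforms; 9.48% of the values were not whole (tolerance 1e-06). Of 279 columns 60 matched the samples, and the other 219 were not used. Symbols were in the table for 56558 of 60675 genes, and gene positions and exon lengths came from GENCODE 29, which held 57055.

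The deposited counts were rounded and fitted in edgeR 4.0.16 (R 4.3.3, limma 3.58.1) by its quasi-likelihood F-test with TMM scaling, filterByExpr (minimum count 10, minimum total 15), robust dispersions and 1 coefficient per group over all 60 libraries. The 33 comparisons were two-sided, and p-values were adjusted by Benjamini-Hochberg over the 17919 genes tested, with 0.05 as the threshold. CPM are scaled by TMM (factors 0.968 to 1.07) unless stated, per-length levels are divided by merged exon length, and intervals are 95%. The totals of 19.45 to 30.87 M counts limit the precision by counting error, which intervals over libraries include.

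All 10 members are described. Of other lists, the 2 called genes with the largest absolute log2 fold change in a comparison, of those reaching 5 CPM in either group, are named, and of the hemidesmosome list all 3 genes, chosen outside this rule after their values were seen, as well as the 3 genes with the highest Pearson correlation over group means. Alternatives were DESeq2 1.42.0, its size factors in edgeR (RLE), no filter, the replicate number as a block, the groups compared alone, each library left out in turn, and all 5 libraries that stood apart left out. These 5 were a fixed list and not set by a cut-off. Atractylodes low replicate 1, not listed, differed more from its group mates (SD over genes 0.158 log2) than peony high replicate 1 (0.146). In groups of 2, such as peony high and angelica low, this SD is the same for both libraries and cannot say which stands apart. The tests of differences between extracts were added after the data were seen. Same-numbered libraries deviated together, with every r above 0.1, in 2 of 24 comparisons with 3 pairs, thioridazine against wortmannin (r of 0.161 to 0.246) and poria high against atractylodes high (0.215 to 0.280). Others came near this cut, such as licorice high against low (0.0891 to 0.122). Missing the cut does not show that libraries are unpaired, and comparisons with 2 pairs could not meet it. The edgeR test was also run on simulated counts with known changes.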

Additional observations from a re-analysis of the deposited data

Results flagged for a closer look

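The difference between high and low dose was compared between the extracts of a set, a test added after the data were seen. It was run in the main fit only, and none of the alternatives was applied to it. ITGB4 fell more with atractylodes than with poria: high minus low was -1.12 with atractylodes and -0.31 with poria, a difference of -0.81 on the log2 scale (SE 0.15, adjusted p = 0.00026 by edgeR), where 3.53% of all genes differed. Between licorice and ginseng 13.4% of all genes differed, and 3 members did. For ITGB3 high minus low was 0.67 with licorice and 0.014 with ginseng, a difference of 0.65 (SE 0.13, adjusted p = 0.00021 by edgeR). For ITGB8 it was -0.47 with licorice and 0.012 with ginseng, a difference of -0.48 (SE 0.099, adjusted p = 0.000365 by edgeR). For ITGA5 it was 0.11 with licorice and -0.094 with ginseng, a difference of 0.21 (SE 0.058, adjusted p = 0.00967 by edgeR). The ITGA5 call for licorice high over low was itself lost in 6 of 12 alternatives. ITGB4 did not pass in that set (-0.70 with licorice, -0.34 with ginseng, difference -0.36, adjusted p = 0.0922 by edgeR). Between peony and angelica the 10 members had adjusted p-values of 0.398 or more by edgeR, where 0.938% of all genes differed. Each difference compares groups of 1 set, while the dispersions and scaling rest on all 60 libraries, vehicle included.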

How the results depend on the processing

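In the main fit 0.419% to 48.4% of all genes were called, depending on the comparison, and no pooled share is given. Of the 84 calls on members in 330 comparisons, 60 held in every alternative, 24 were lost in at least 1, and 0 changed sign. The replicate number as a block lost 0 of these calls and added 9. Counts of members called that moved by over 1.5 times were mostly those of groups with few calls, and the cause was not tested. The share of all genes called in each alternative is not given here, so the counts below cannot be set against it.

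With DESeq2's size factors (RLE) in edgeR, 1 was called for poria low, atractylodes low and angelica high against peony high, and 7 for licorice medium. With no filter, 1 was called for poria low, peony low and ginseng high against low, and 2 for atractylodes medium, atractylodes low, ginseng high, atractylodes high against low and angelica high against peony high. With the replicate block, 1 was called for poria low, atractylodes low, ginseng high against low and angelica high against peony high, and 2 for atractylodes medium.

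Without the 5 libraries that stood apart (angelica low replicate 2, licorice medium replicate 3 and replicate 1 of ginseng low, peony high and atractylodes high), 1 was called for poria low, atractylodes high, ginseng medium and low, angelica medium and low, peony medium and peony high against low. In the same fit 2 were called for atractylodes medium and angelica high, 3 for poria medium, atractylodes low, peony low and atractylodes high against low, 4 for licorice low, 5 for ginseng high and 6 for wortmannin against LY294002. With the groups alone, 1 was called for poria low, atractylodes high and low, ginseng medium, angelica medium and angelica high against peony high, and 2 for atractylodes medium, peony medium and poria high against atractylodes high. There, 3 were called for poria medium, angelica high and peony low, 4 for licorice low, 6 for ginseng high and 7 for licorice high. With DESeq2, 1 was called for atractylodes low, ginseng medium and low, angelica medium and low, peony medium and angelica high against peony high. It called 2 for poria medium and low, atractylodes medium, licorice low, angelica high and peony low, 3 for atractylodes high against low, 4 for ginseng high and 7 for licorice medium.

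Leaving out 1 library gave 0 to 1 members called for atractylodes low, ginseng low, angelica high, angelica high against low and poria high against low, and 0 to 2 for angelica high against peony high. It gave 1 to 2 for atractylodes high, atractylodes medium and ginseng high, 1 to 3 for atractylodes high against low, 1 to 4 for peony high against low, 2 to 5 for peony high and 3 to 5 for poria high. With 2 libraries a group, peony and angelica rest on the spread shared with the other groups.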
